A study of Mus musculus with 24 samples.

Results

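Intraflagellar transport (IFT) and BBSome genes were followed in mouse embryonic stem cells differentiating towards endoderm. The set holds 41 genes of 55401 in the count table: 6 of the IFT-A complex, 11 of the IFT-B core, 6 of the peripheral part of IFT-B, 4 kinesin genes, 2 dynein-2 genes, 7 of the BBSome core, 2 BBSome regulators and 3 chaperonins. The genes were listed by name and place in a complex, with no threshold on a value. The theme itself was chosen by lower levels of cilium genes in knock-out cells that had already been seen in these libraries, so the counts of genes lower in the knock-out describe that contrast and support nothing else. Of the 41 genes, 39 were among the 17144 tested. Lztfl1, a regulator of the BBSome, and Bbs12, a chaperonin, were listed at 0 in all 24 libraries. Sox2, which mouse embryonic stem cells use, was listed at 0 too, so a listed 0 does not show that RNA was absent.

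All libraries came from CJ9 cells, a mouse embryonic stem cell line, either wild type or with Setd3, which encodes a histidine methyltransferase of actin, knocked out by CRISPR-Cas9. The study asked what Setd3 does in endoderm differentiation. Stem cells grew on inactivated mouse embryonic fibroblasts in the presence of LIF (day 0), were separated from the fibroblasts, kept for 2 days in serum-free differentiation medium (day 2), and then given Activin A (days 3 and 4), which acts through the receptors that Nodal uses. The groups are knock-out (KO) cells at days 0, 2, 3 and 4 and wild-type (WT) cells at the same days, with 3 libraries of polyadenylated RNA in each. The knock-out comes from 1 line, and no label states that replicates came from separate cultures, so p-values measure the spread between these libraries only, which may be technical.

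A cilium is a hair-like projection built around microtubules, and its proteins are carried in and out by IFT. Trains of IFT-B are moved towards the tip by kinesin-2, IFT-A works with dynein-2 on the way back, and the BBSome links membrane proteins to the trains. Chaperonin-like proteins help the BBSome to assemble, and mutations of its genes cause Bardet-Biedl syndrome. In the mouse embryo, motile cilia of the node at the tip of the primitive streak are known for setting the left-right axis, and many genes of ciliary transport carry an X-box, the binding motif of RFX transcription factors, near their start.

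Counts per library summed to between 18531390 and 24244958. Levels are given as CPM, in which library totals were made equal with TMM factors, and ± after a mean is the SD of n = 3 libraries. Where ± follows a log2 fold change, it is that change divided by the square root of F in its test, with no sign, and is not a fitted standard error. A gene is said to rise or fall where its adjusted p, from the quasi-likelihood test of edgeR, adjusted by Benjamini-Hochberg over all tested genes, was under 0.05. Setd3 itself had 47.7, 48.8 and 42.3 CPM in KO cells and 119.8, 127 and 119 CPM in WT cells at day 0, and 29.6, 29.1 and 31.1 CPM in KO cells against 127, 124 and 119.96 CPM in WT cells at day 4. Its KO libraries lay below the WT libraries at all 4 days, at log2 fold changes of -1.40 ± 0.06, -1.66 ± 0.06, -1.93 ± 0.06 and -2.05 ± 0.06.

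Marker lists moved with genotype and day, and their part in the results was not tested. Of 6 pluripotent markers, Sox2 was listed at 0 in all libraries, and the sum of the list was 706 to 750.5 CPM in KO cells and 188 to 308 CPM in WT cells at day 4, against 2491 to 2698 CPM in KO cells and 2507 to 2517 CPM in WT cells at day 0. At day 2 it was 589 to 635 CPM in KO cells and 376 to 419 CPM in WT cells. The order was reversed at day 3, with 690 to 701 CPM in KO cells and 779 to 847 CPM in WT cells. At day 4 Klf4 was lower in KO cells, while Pou5f1, Nanog, Zfp42 and Esrrb were higher. The 6 definitive endoderm markers summed to 90.5 to 217 CPM in KO cells and 1596 to 1799 CPM in WT cells at day 4, and Cer1 was at 0 in all KO libraries of days 0 and 2. The 12 fibroblast feeder markers, none at 0 in any group, summed to 1089 to 2961 CPM in KO cells and 1139.7 to 1977 CPM in WT cells at day 0, and to 107 to 175 CPM in KO cells and 98.5 to 113 CPM in WT cells at day 2. In such bulk samples, fewer cells of a type and less RNA per cell cannot be told apart.

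Promoters of 36 of the 41 genes were found in RefSeq windows of GRCm38.p6, 250 bases before to 50 after the first listed start. Missing were Dync2li1, Ift122, Ift80, Ift81 and Ttc30b. Printed here are those of Ttc26 and Bbs1, which fell in KO cells at all 4 days and held both spellings of the X-box that were searched, of Kif3a, which had no KO change at day 0 past the threshold and fell later, and of Traf3ip1, the IFT-B gene that rose. Capitals mark GTTGCC, called a core site here, and the palindrome GTNNCC, then 2 of any base, then GGNNAC, on either strand. A match is a description of letters, not a shown binding site.
Ttc26, chr6:38381274-38381573, plus strand: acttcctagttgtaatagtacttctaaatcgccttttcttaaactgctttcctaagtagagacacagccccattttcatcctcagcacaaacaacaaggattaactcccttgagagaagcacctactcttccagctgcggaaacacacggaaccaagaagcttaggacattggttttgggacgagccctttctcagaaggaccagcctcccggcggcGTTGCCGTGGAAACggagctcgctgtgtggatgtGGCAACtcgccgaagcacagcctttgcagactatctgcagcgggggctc
Bbs1, chr19:4906578-4906877, minus strand: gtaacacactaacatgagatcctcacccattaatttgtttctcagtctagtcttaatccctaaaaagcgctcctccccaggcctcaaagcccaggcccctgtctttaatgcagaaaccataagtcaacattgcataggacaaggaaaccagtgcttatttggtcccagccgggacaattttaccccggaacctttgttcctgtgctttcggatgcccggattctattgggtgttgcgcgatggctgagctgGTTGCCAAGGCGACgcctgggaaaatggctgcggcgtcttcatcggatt
Kif3a, chr11:53567119-53567418, plus strand: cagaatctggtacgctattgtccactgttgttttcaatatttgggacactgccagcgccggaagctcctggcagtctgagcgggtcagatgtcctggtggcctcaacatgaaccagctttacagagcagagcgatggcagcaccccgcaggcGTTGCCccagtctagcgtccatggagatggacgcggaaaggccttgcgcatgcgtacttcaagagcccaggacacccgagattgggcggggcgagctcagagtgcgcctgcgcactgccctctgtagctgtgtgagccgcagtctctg
Traf3ip1, chr1:91494418-91494717, plus strand: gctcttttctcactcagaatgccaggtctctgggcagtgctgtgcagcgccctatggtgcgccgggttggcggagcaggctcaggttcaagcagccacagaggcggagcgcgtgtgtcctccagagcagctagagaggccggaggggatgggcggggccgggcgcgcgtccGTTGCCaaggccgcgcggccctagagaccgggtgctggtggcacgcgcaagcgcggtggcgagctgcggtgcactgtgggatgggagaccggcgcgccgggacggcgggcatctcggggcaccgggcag

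KO cells had lower levels of most of these genes after day 0. The number grew with the days, as did the share of all tested genes that fell. At day 0, 7 of 39 fell and none rose, against 10.5% lower and 10.6% higher among all tested genes. At day 2, 26 fell and none rose, against 15.7% and 16.2% of all genes. At day 3, 27 fell and 1 rose, against 20.5% and 20.8%. At day 4, 31 fell and 2 rose, against 27.6% and 26.3%; the 31 include Kif17, which passed the filter on low counts through WT libraries alone. The median log2 fold change of the 39 genes was -0.18, -0.37, -0.49 and -0.57 at days 0, 2, 3 and 4, while that of all tested genes was 0.01, -0.01, -0.01 and -0.01. The endoderm markers were also lower in KO cells, with sums at day 3 of 10.2 to 13.6 CPM in KO cells and 221 to 585 CPM in WT cells, and their part in these counts was not tested. The day 0 count became 4 without KO replicate 2 of that day, and also 4 where only the day 0 groups were fitted.

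Libraries separated in the same direction. All 3 KO libraries lay below all 3 WT libraries for 17, 30, 30 and 32 genes at days 0, 2, 3 and 4, against 16.7%, 24.6%, 27.4% and 31.4% of all tested genes. The 32 of day 4 include Kif17, which passed the filter on low counts through WT libraries alone. The KO libraries lay above for 1, 1, 3 and 2 genes, against 15.7%, 24.5%, 27.4% and 29.3%. Lower at days 2, 3 and 4 alike were 20 of the 39 genes, a state held by 6.99% of all tested genes, and higher at all 3 days were none, against 7.48%. The 20 comprise 7 of the IFT-B core (Ift22, Ift74, Ift81, Ift88, Ttc26, Ttc30a1 and Ttc30b), Ift57 and Ift172 of its periphery, Wdr19 and Ift122 of IFT-A, Kif3a, Kif3b, Dync2h1 and Dync2li1 of the motors, Bbs1, Bbs2, Bbs7 and Bbip1 of the BBSome, and Bbs10. These 3 comparisons use different libraries of the same 2 lines.

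**Figure D1:**
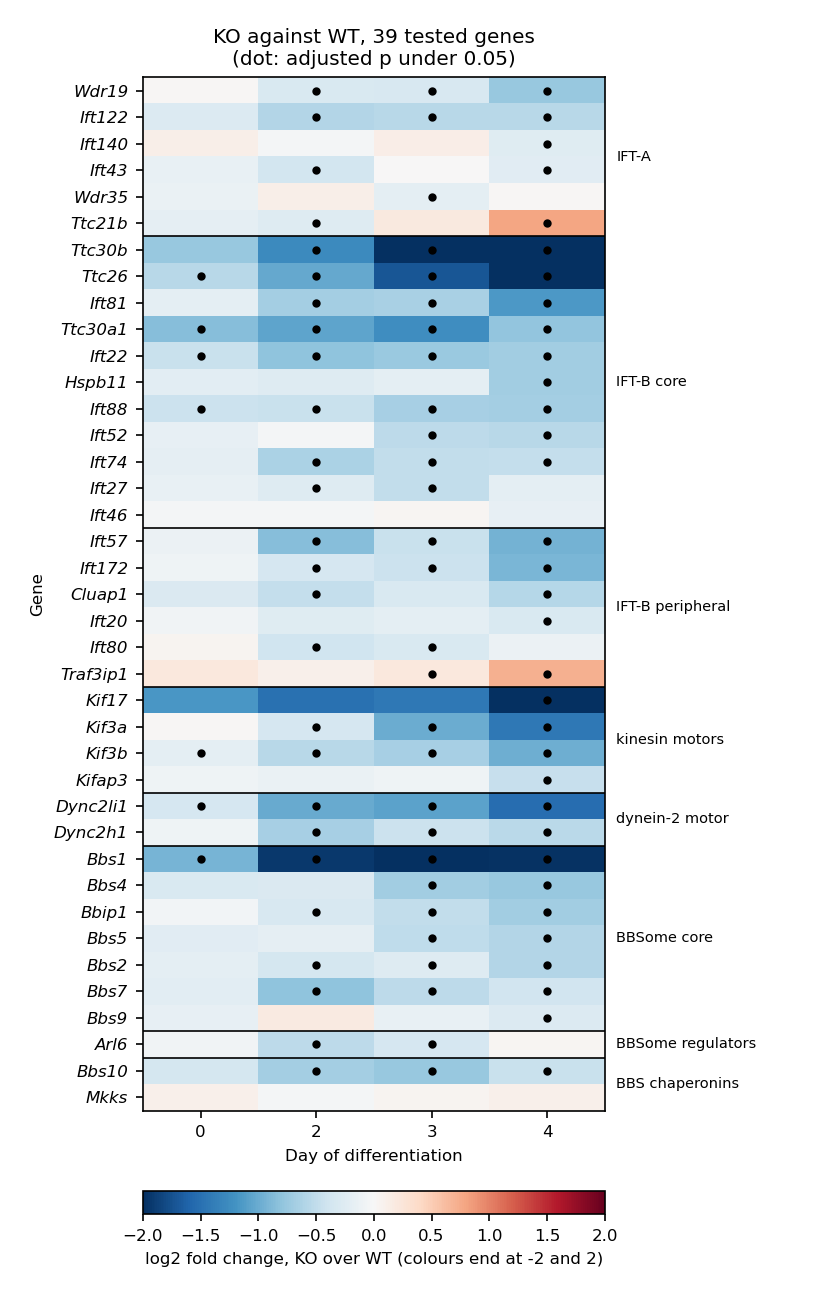
Log2 fold change of KO over WT (colour, ending at -2 and 2) for the 39 tested genes in rows, ordered by complex, at days 0, 2, 3 and 4 in columns; dots mark adjusted p under 0.05. Dots at day 0 mark 7 genes, all lower in KO; at day 4 they mark 33, of which Ttc21b and Traf3ip1 are the ones higher in KO.

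The IFT-B core is the part of the train that carries tubulin and other cargo outwards. Of its 11 genes, 4, 8, 9 and 9 fell at days 0, 2, 3 and 4, and none rose. Over all tested genes, 10.5%, 15.7%, 20.5% and 27.6% fell on these days. The shares that rose were 10.6%, 16.2%, 20.8% and 26.3%. Ttc26 (ENSMUSG00000056832, chromosome 6, 38381469 to 38427647, plus strand), a tetratricopeptide subunit, had the lowest adjusted p of all 39 genes at days 2, 3 and 4. At day 0 it had 15.8, 15.5 and 17.4 CPM in KO cells and 23.8, 23.7 and 24.4 CPM in WT cells. At day 2 the values were 10.1, 10.8 and 10.4 CPM in KO cells and 21.9, 22.8 and 19.2 CPM in WT cells. The KO libraries were lower without overlap on both days. By day 3 Ttc26 had 6.52, 6.49 and 7.10 CPM in KO cells and 25.05, 22.4 and 18.6 CPM in WT cells. At day 4 it had 9.48, 8.57 and 10.02 CPM in KO cells and 36.9, 41.3 and 35.8 CPM in WT cells, again without overlap. At day 0 the log2 fold change was -0.56 ± 0.10, adjusted p = 0.000158, and at day 2 it was -1.03 ± 0.10, adjusted p = 4.94e-08. It went on to -1.71 ± 0.10, adjusted p = 5.99e-12 after 3 days and to -2.02 ± 0.10, adjusted p = 5.85e-14 by day 4, so that KO cells held 24.6% of the WT mean at the last day. The promoter printed above holds a palindrome whose first base lies 33 bases before the start and another core site, on the other strand, just after the start.

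Ttc30a1 and Ttc30b encode related tetratricopeptide subunits of IFT-B, lie near each other on chromosome 2 and are close copies, so how reads were shared between them is uncertain. Ttc30a1 had 6.52, 5.91 and 5.68 CPM in KO cells and 10.5, 9.67 and 12.5 CPM in WT cells at day 0 (-0.86 ± 0.13, adjusted p = 4.15e-05). At day 2 it had 4.62, 3.67 and 4.64 CPM in KO cells and 8.68, 9.80 and 8.50 CPM in WT cells (-1.06 ± 0.14, adjusted p = 3.14e-06). All KO libraries were below all WT libraries on both days. At day 3 it had 5.93, 6.40 and 5.39 CPM in KO cells and 14.5, 14.3 and 12.96 CPM in WT cells (-1.24 ± 0.13, adjusted p = 5.3e-08), and at day 4 the log2 fold change was -0.78 ± 0.13, adjusted p = 1.37e-05. Ttc30b was at much lower CPM, with 0.590, 0.666 and 0.827 CPM in KO cells and 6.000, 8.01 and 6.64 CPM in WT cells at day 4 (-3.30 ± 0.30, adjusted p = 1.6e-09). The KO libraries were all under 1 CPM and the WT libraries all at 6 CPM or more. At day 0 its value was -0.75 ± 0.28, adjusted p = 0.0553, which missed the threshold.

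Ift81, which with Ift74 binds tubulin, had 14.3, 15.7 and 15.7 CPM in KO cells and 31.9, 36.00 and 33.7 CPM in WT cells at day 4 (-1.15 ± 0.10, adjusted p = 9.67e-10). KO libraries were below WT libraries, as they were at days 2 and 3, while at day 0 the groups overlapped. Ift74 fell by less at day 4 (-0.47 ± 0.09, adjusted p = 7.45e-05). Ift88, a core subunit whose mutation causes polycystic kidneys in mice, had 17.97, 17.7 and 15.4 CPM in KO cells and 21.99, 23.4 and 23.8 CPM in WT cells already at day 0 (-0.44 ± 0.08, adjusted p = 0.000316). Its groups did not overlap on any day, and it was at -0.68 ± 0.08 at day 4. The small GTPase gene Ift22 had 8.50, 6.45 and 5.63 CPM in KO cells and 9.86, 10.7 and 7.50 CPM in WT cells at day 0 (-0.45 ± 0.15, adjusted p = 0.0287). Those groups overlapped, with KO replicate 1 above WT replicate 3, and the call was lost where only the 2 groups compared were fitted, or without KO replicate 2 or 3 or WT replicate 1 or 2. From day 2 on the groups did not overlap, and the log2 fold changes were -0.80 ± 0.15, -0.74 ± 0.15 and -0.69 ± 0.14.

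The remaining core genes moved late or not past the threshold. Ift52, a scaffold of the core, was at -0.05 ± 0.09 at day 2 and fell at day 3 (-0.52 ± 0.09, adjusted p = 4.91e-05) and day 4 (-0.56 ± 0.09, adjusted p = 8.86e-06). Hspb11, the partner of Ift27, fell at day 4 alone among the 4 days (-0.69 ± 0.12, adjusted p = 1.66e-05). Ift27, a small GTPase that links IFT-B to the BBSome, fell at day 2 (-0.26 ± 0.10, adjusted p = 0.0477, a call lost without KO replicate 1, among other libraries) and day 3 (-0.49 ± 0.10, adjusted p = 0.000252) but was at -0.19 ± 0.10, adjusted p = 0.0998 at day 4. Ift46 passed at no day, with 61.3, 63.02 and 58.6 CPM in KO cells and 71.01, 71.1 and 62.7 CPM in WT cells at day 4 (-0.16 ± 0.07, adjusted p = 0.0698). Its groups overlapped.

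The peripheral part of IFT-B held both directions. Of 6 genes, none was called at day 0, 4 fell at day 2, 3 fell and 1 rose at day 3, and 4 fell and 1 rose at day 4. Over all tested genes, 15.7%, 20.5% and 27.6% fell at days 2, 3 and 4, and 16.2%, 20.8% and 26.3% rose. Traf3ip1 (ENSMUSG00000034292, chromosome 1, 91494647 to 91529307, plus strand), a microtubule-binding subunit, was the gene that rose. At day 3 it had 42.2, 38.8 and 40.7 CPM in KO cells and 31.7, 36.7 and 36.7 CPM in WT cells (0.21 ± 0.08, adjusted p = 0.0382). At day 4 it had 38.8, 36.2 and 35.9 CPM in KO cells and 20.5, 22.9 and 24.5 CPM in WT cells (0.71 ± 0.08, adjusted p = 9.25e-08). KO libraries were above WT libraries on both days, and the day 3 call was lost without the filter on low counts, or without KO replicate 1 or 3 or WT replicate 1. Ift172, the largest peripheral subunit, fell at days 2, 3 and 4, at -0.33 ± 0.09, -0.43 ± 0.09 and -0.91 ± 0.09. Ift57, which joins the periphery to the core, was at -0.85 ± 0.12, -0.45 ± 0.12 and -0.94 ± 0.12 on these days and at -0.12 ± 0.12 at day 0, where its groups overlapped. Ift80 fell at day 2 (-0.39 ± 0.06, adjusted p = 2.38e-05) and day 3 (-0.31 ± 0.06, adjusted p = 0.000189) and was at -0.11 ± 0.06, adjusted p = 0.117 at day 4. Ift20, which also acts at the Golgi, fell at day 4 (-0.30 ± 0.09, adjusted p = 0.00669), a call lost without KO replicate 1. Cluap1 fell at day 2 (-0.47 ± 0.14, adjusted p = 0.0132, lost without KO replicate 2 or WT replicate 1) and day 4 (-0.57 ± 0.14, adjusted p = 0.00151). Gm20695, which overlaps 22.4% of the exonic length of Cluap1 on the same strand, had 40 counts in all, against 3685 of Cluap1.

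Kif3a, Kif3b and Kifap3 fell at day 4. Kif3a and Kif3b encode the paired motor subunits of kinesin-2. Kif3a (ENSMUSG00000018395, chromosome 11, 53567379 to 53601967, plus strand) had 28.8, 31.5 and 32.2 CPM in KO cells and 30.3, 31.4 and 29.8 CPM in WT cells at day 0, where the groups overlapped (0.02 ± 0.09, adjusted p = 0.929). At day 3 it had 16.98, 16.3 and 13.5 CPM in KO cells and 36.3, 29.3 and 27.5 CPM in WT cells (-0.99 ± 0.09, adjusted p = 1.05e-08). At day 4 it had 19.8, 21.2 and 20.6 CPM in KO cells and 53.2, 55.04 and 58.2 CPM in WT cells (-1.43 ± 0.09, adjusted p = 4.98e-12), with all KO libraries far below all WT libraries. The KO mean was 79.3%, 50.2% and 37.1% of the WT mean at days 2, 3 and 4.

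Kif3b had 38.1, 32.9 and 31.8 CPM in KO cells and 38.7, 39.9 and 39.4 CPM in WT cells at day 0 (-0.20 ± 0.06, adjusted p = 0.0235). At day 2 it had 29.4, 29.8 and 29.5 CPM in KO cells and 45.00, 43.8 and 41.1 CPM in WT cells (-0.55 ± 0.06, adjusted p = 4.91e-07). At day 3 the values were 27.3, 27.1 and 27.6 CPM in KO cells and 44.7, 43.5 and 41.95 CPM in WT cells (-0.67 ± 0.06, adjusted p = 1.01e-08). KO replicate 1 came near the WT libraries at day 0, where the call was lost when only those 2 groups were fitted, without the filter on low counts, or without KO replicate 2 or 3 or WT replicate 2 or 3. From day 2 on the gap was wide. At day 4 Kif3b had 29.8, 28.3 and 28.1 CPM in KO cells and 54.2, 57.5 and 57.95 CPM in WT cells (-0.98 ± 0.06, adjusted p = 5.06e-12). Kifap3, the accessory subunit of the same motor, was measured at higher CPM and differed less, with 63.3, 65.9 and 61.05 CPM in KO cells and 96.3, 89.4 and 75.4 CPM in WT cells at day 4 (-0.46 ± 0.06, adjusted p = 9.95e-07). At the earlier days it was between -0.13 and -0.08 and missed the threshold.

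Kif17, a kinesin-2 that acts as a homodimer, was close to the limit of detection. Summed over 3 libraries, it had 16 counts in KO cells and 40 in WT cells at day 0. The sums were 8 in KO cells and 23 in WT cells at day 2, then 5 in KO cells and 13 in WT cells at day 3. By day 4 they were 2 in KO cells and 50 in WT cells. Only 6 of 24 libraries held 10 counts or more, and the gene passed the filter on low counts through WT libraries alone. The ratio of KO to WT, scaled for depth, was 0.437 (95% exact interval 0.228 to 0.797) at day 0 and 0.0401 (0.00473 to 0.153) at day 4; these intervals cover counting error only. Since the filter was passed through the WT libraries, the call of Kif17 at day 4 is not given as support for a fall.

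Both dynein-2 genes, which encode the motor of return transport, fell at days 2, 3 and 4. Dync2li1, the light intermediate chain, had 6.78, 6.32 and 7.53 CPM in KO cells and 13.4, 15.1 and 13.2 CPM in WT cells at day 2 (-1.01 ± 0.12, adjusted p = 1.03e-06). At day 3 it had 5.25, 5.29 and 5.92 CPM in KO cells and 12.3, 10.5 and 11.8 CPM in WT cells (-1.07 ± 0.13, adjusted p = 2.42e-07). At day 4 it had 5.04, 6.24 and 6.08 CPM in KO cells and 13.6, 18.6 and 17.6 CPM in WT cells (-1.52 ± 0.12, adjusted p = 2.29e-10). No KO library reached a WT library on these days, and the day 0 call (-0.34 ± 0.12, adjusted p = 0.0419) was lost where only those groups were fitted, without the filter, or without any 1 of 5 libraries (all but WT replicate 3). Dync2h1, the heavy chain, had 32.5, 29.4 and 34.4 CPM in KO cells and 53.1, 49.5 and 50.4 CPM in WT cells at day 2 (-0.67 ± 0.08, adjusted p = 1.26e-06). Its groups overlapped at day 0 (-0.09 ± 0.09) and separated later, with -0.43 ± 0.08 at day 3 and -0.54 ± 0.08 at day 4.

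IFT-A also held both directions. Of 6 genes, none was called at day 0, 4 fell at day 2, 3 fell at day 3, and 4 fell and 1 rose at day 4. The shares of all tested genes that fell at days 2, 3 and 4 were 15.7%, 20.5% and 27.6%, and 16.2%, 20.8% and 26.3% rose. Ttc21b (ENSMUSG00000034848, chromosome 2, 66184327 to 66256617, minus strand), which is needed for return transport and for the entry of membrane proteins, was the one that rose. At day 2 it had 81.7, 87.2 and 84.4 CPM in KO cells and 100.03, 99.2 and 102 CPM in WT cells, and it fell (-0.25 ± 0.08, adjusted p = 0.0198), a call lost without KO replicate 1 or 3 or WT replicate 3. At day 4 it had 66.3, 76.6 and 69.9 CPM in KO cells and 35.4, 42.98 and 44.2 CPM in WT cells (0.80 ± 0.08, adjusted p = 1.76e-08). The KO libraries were below the WT libraries at day 2 and above them at day 4; at day 3 they were above (0.19 ± 0.08, adjusted p = 0.0632), past the threshold with DESeq2's size factors, in DESeq2's Wald test and with only the groups compared. Wdr19 and Ift122 fell at days 2, 3 and 4, Wdr19 at -0.31 ± 0.10, -0.32 ± 0.10 and -0.76 ± 0.10, and Ift122 at -0.59 ± 0.11, -0.55 ± 0.10 and -0.55 ± 0.10. Ift43 fell at day 2 (-0.37 ± 0.09, adjusted p = 0.00186) and day 4 (-0.23 ± 0.08, adjusted p = 0.0241), but was at 0.00 ± 0.09 at day 3. Ift140 fell at day 4 (-0.25 ± 0.09, adjusted p = 0.0181) after small differences of either sign. Wdr35 fell at day 3 (-0.20 ± 0.07, adjusted p = 0.0216) and was at 0.03 ± 0.07 at day 4. Lost without 1 library were the calls of Ift140 (KO replicate 2 or 3, or WT replicate 2) and Ift43 (KO replicate 1, or WT replicate 1 or 2) at day 4, of Wdr19 at day 2 (KO replicate 1, among others) and day 3 (WT replicate 1 or 3), and of Wdr35 at day 3 (KO replicate 2 or WT replicate 1).

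**Figure D2:**
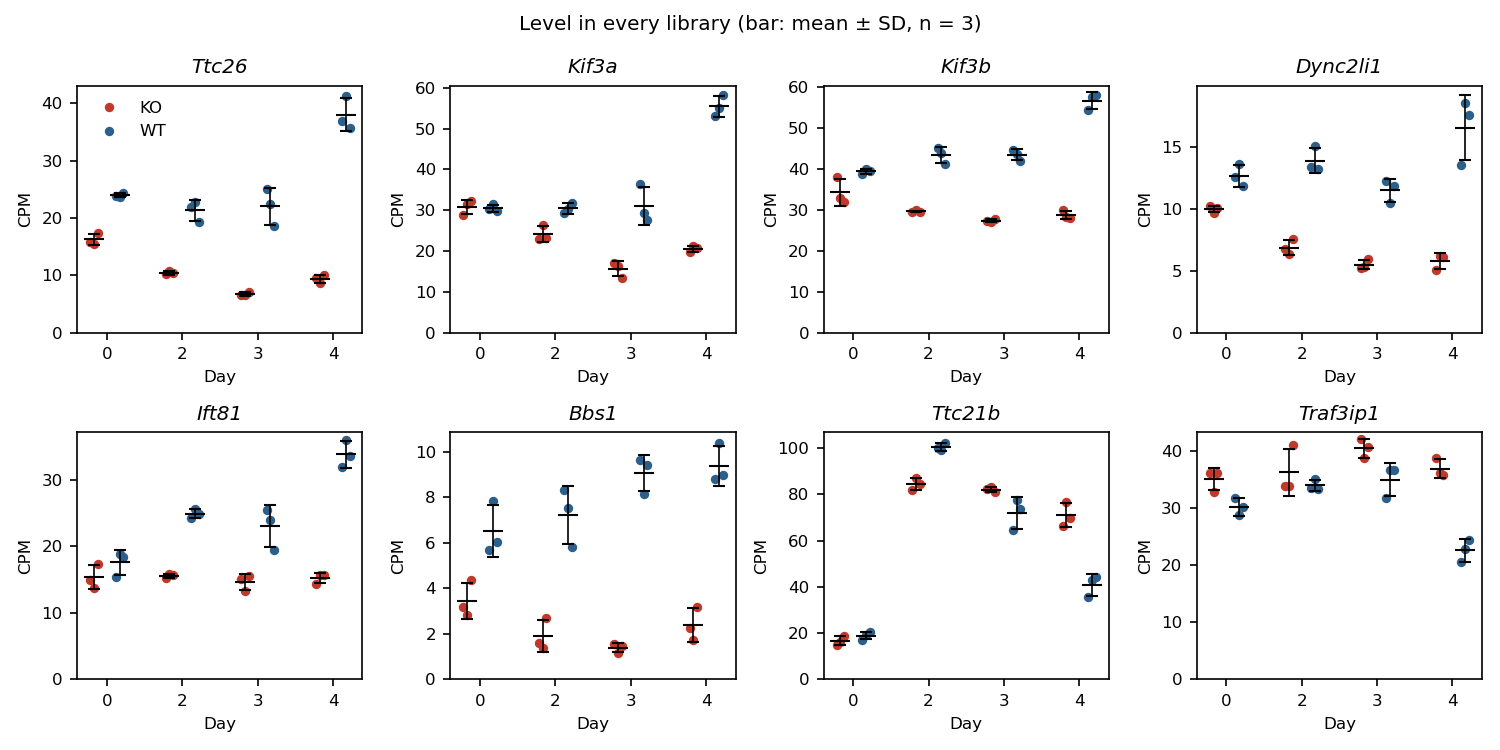
CPM (vertical axis, from 0) in every library at days 0, 2, 3 and 4 for 8 genes, KO in red to the left of WT in blue; bars are mean ± SD of n = 3. At day 4 the KO libraries lie below the WT libraries for Ttc26, Kif3a, Kif3b, Dync2li1, Ift81 and Bbs1, and above them for Ttc21b and Traf3ip1.

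The BBSome core genes of the set were lower in KO cells by day 4. Of these 7 genes, 1, 4, 6 and 7 fell at days 0, 2, 3 and 4, against 10.5%, 15.7%, 20.5% and 27.6% of all tested genes. Ttc8, a further core subunit that is outside the set and is named here after its values were seen, went the other way. It had 33.7, 32.7 and 30.4 CPM in KO cells and 19.8, 24.3 and 19.5 CPM in WT cells at day 4 (0.61 ± 0.10, adjusted p = 1.41e-05). It also rose at days 0, 2 and 3, at 0.58 ± 0.11, 0.55 ± 0.10 and 0.55 ± 0.10, with KO libraries above WT libraries on each day. The part of the position of Ttc8 on its chromosome was not tested. Bbs1, the subunit that binds the GTPase Arl6, had 3.16, 2.80 and 4.34 CPM in KO cells and 5.66, 7.83 and 6.04 CPM in WT cells at day 0 (-0.93 ± 0.22, adjusted p = 0.0033). At day 2 it had 1.61, 1.38 and 2.69 CPM in KO cells and 8.30, 7.54 and 5.80 CPM in WT cells (-1.93 ± 0.24, adjusted p = 1.14e-06). At day 3 it had 1.52, 1.15 and 1.45 CPM in KO cells and 9.62, 8.15 and 9.43 CPM in WT cells (-2.71 ± 0.24, adjusted p = 2.89e-09). KO libraries stayed below WT libraries throughout, and at day 4 Bbs1 had 2.27, 1.71 and 3.16 CPM in KO cells and 8.80, 10.4 and 8.96 CPM in WT cells (-1.98 ± 0.22, adjusted p = 5.49e-08). The palindrome in its promoter above begins just after the start.

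Other BBSome genes differed by less. At day 4, Bbs4 was at -0.76 ± 0.13, adjusted p = 2.83e-05, Bbip1 at -0.69 ± 0.09, adjusted p = 7.64e-07 and Bbs5 at -0.59 ± 0.12, adjusted p = 0.000277. Bbs7 fell most at day 2 (-0.80 ± 0.14, adjusted p = 7.79e-05) and was at -0.38 ± 0.13, adjusted p = 0.0131 at day 4, and Bbs9 fell at day 4 (-0.28 ± 0.09, adjusted p = 0.0124). The day 4 calls were lost for Bbs7 without KO replicate 2 or WT replicate 2, and for Bbs9 without WT replicate 2 or 3. Bbs2 is the one tested gene of the set on chromosome 8, whose 845 tested genes had KO over WT medians of 0.24, 0.21, 0.21 and 0.20 at days 0, 2, 3 and 4. Bbs2 itself was not raised: it had 13.3, 12.8 and 14.1 CPM in KO cells and 19.4, 21.05 and 19.8 CPM in WT cells at day 4 (-0.58 ± 0.09, adjusted p = 5.66e-06), all KO libraries being lower, and it fell at day 2 (-0.35 ± 0.09) and day 3 (-0.26 ± 0.09), a day 3 call lost without KO replicate 1 or 2 or WT replicate 2.

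Of the proteins around the BBSome, Arl6, the GTPase that brings it to membranes, fell at day 2 (-0.52 ± 0.09, adjusted p = 8.78e-05) and day 3 (-0.33 ± 0.09, adjusted p = 0.00406) and was at 0.05 ± 0.09, adjusted p = 0.698 at day 4, with 20.5, 19.7 and 20.7 CPM in KO cells and 18.4, 21.2 and 19.4 CPM in WT cells. These day 4 groups overlapped. Bbs10, a chaperonin, fell at day 2 (-0.68 ± 0.16, adjusted p = 0.00192) and day 3 (-0.76 ± 0.16, adjusted p = 0.000321). It was also lower at day 4 (-0.45 ± 0.16, adjusted p = 0.0176), where the call was lost without KO replicate 1 or 2 or WT replicate 1. Mkks, another chaperonin, passed at no day, with log2 fold changes between -0.04 and 0.10 and overlapping groups at each.

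In WT cells the set went both ways in the first step, little in the next, and mostly up in the last. Between day 2 and day 0, 12 of 39 genes rose and 7 fell, against 32.0% and 31.8% of all tested genes. Ttc21b rose most, to 100.03, 99.2 and 102 CPM at day 2, against 17.04, 19.3 and 20.2 CPM at day 0 (2.41 ± 0.09, adjusted p = 3.74e-17). Ift43 had 27.1, 24.2 and 23.4 CPM at day 2 and 10.8, 11.9 and 11.8 CPM at day 0 (1.11 ± 0.09, adjusted p = 8.58e-11). Neither pair of groups overlapped. Dync2h1 had 53.1, 49.5 and 50.4 CPM at day 2 and 27.1, 25.4 and 24.9 CPM at day 0 (0.98 ± 0.08, adjusted p = 2.07e-10). Ift80 had 53.9, 58.8 and 55.9 CPM at day 2 and 34.4, 36.5 and 36.8 CPM at day 0 (0.64 ± 0.06, adjusted p = 1.58e-09). These genes of IFT-A, dynein-2 and the IFT-B periphery were each higher in every day 2 library. Ift122 followed at 0.91 ± 0.11 and Ift81 at 0.50 ± 0.10. Among those that fell, Bbs9 had 14.7, 16.5 and 15.5 CPM at day 2 and 26.6, 25.6 and 26.2 CPM at day 0 (-0.74 ± 0.09, adjusted p = 1.11e-07). Ift52 had 31.6, 30.3 and 29.01 CPM at day 2 and 47.9, 47.2 and 51.1 CPM at day 0 (-0.69 ± 0.09, adjusted p = 2.23e-07). Both were lower in every day 2 library, and Wdr35 (-0.39 ± 0.07), Kifap3 (-0.29 ± 0.06), Mkks (-0.37 ± 0.10) and Arl6 (-0.21 ± 0.09) fell by less. The Arl6 call was lost without the filter on low counts, with only the groups compared, and without WT replicate 3 of either day.

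Between day 3 and day 2 in WT cells, 3 genes rose and 5 fell, against 21.4% and 21.1% of all tested genes. IFT-A held 4 of the 5 that fell: Ttc21b (-0.48 ± 0.08, adjusted p = 3.72e-05), Wdr35 (-0.35 ± 0.07, adjusted p = 0.000155), Ift140 (-0.36 ± 0.09, adjusted p = 0.00192) and Wdr19 (-0.35 ± 0.10, adjusted p = 0.00661), beside Bbs2 (-0.31 ± 0.09, adjusted p = 0.00676). Ttc21b had 64.5, 77.7 and 73.4 CPM at day 3 and 100.03, 99.2 and 102 CPM at day 2, with no overlap. Rising were Ttc30a1 (0.63 ± 0.13, adjusted p = 0.000293), Bbip1 (0.36 ± 0.10, adjusted p = 0.0035) and Bbs5 (0.39 ± 0.12, adjusted p = 0.0137), the first with 14.5, 14.3 and 12.96 CPM at day 3 and 8.68, 9.80 and 8.50 CPM at day 2.

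Between day 4 and day 3 in WT cells, 22 genes rose and 3 fell, against 22.4% and 23.1% of all tested genes, with a median of 0.23. The 22 include 4 kinesin genes, 7 of 11 in the IFT-B core, 5 of 7 in the BBSome core and 3 of 6 in IFT-A. Calls of Kifap3, Ift52, Ift74 and Bbs9 were lost where only the groups compared were fitted. Without 1 library, calls were lost for Kifap3 (WT replicate 1 of day 4), for Ift46, Ift52 and Ift74 (WT replicate 2 of either day, among others) and for Bbs9 (WT replicate 1 of day 3, among others). Kif17, with 50 counts at day 4 and 13 at day 3, was one of the kinesin genes. Kif3a had the lowest adjusted p of those that rose (0.84 ± 0.09, adjusted p = 4.45e-08), with 53.2, 55.04 and 58.2 CPM at day 4 and 36.3, 29.3 and 27.5 CPM at day 3. Next was Ttc26 (0.79 ± 0.09, adjusted p = 2.37e-07), with 36.9, 41.3 and 35.8 CPM at day 4 and 25.05, 22.4 and 18.6 CPM at day 3. No day 4 library reached down to a day 3 library for either gene. Wdr19 (0.70 ± 0.10, adjusted p = 3.16e-06), Ift140 (0.59 ± 0.09, adjusted p = 6.13e-06), Kif3b (0.38 ± 0.06, adjusted p = 1.56e-05) and Bbip1 (0.53 ± 0.09, adjusted p = 4.68e-05) also rose. Those that fell were Ttc21b (-0.81 ± 0.08, adjusted p = 2.37e-08), Traf3ip1 (-0.63 ± 0.08, adjusted p = 9.97e-07) and Arl6 (-0.33 ± 0.09, adjusted p = 0.00348). Traf3ip1 had 20.5, 22.9 and 24.5 CPM at day 4 and 31.7, 36.7 and 36.7 CPM at day 3, again without overlap. Over the same days the endoderm markers summed to 1596 to 1799 CPM at day 4 and 221 to 585 CPM at day 3 in WT cells.

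KO cells gave more falls in the first step and few called rises in the last. Between day 2 and day 0 in KO cells, 7 genes rose and 17 fell, against 29.5% and 30.6% of all tested genes, with a median of -0.20, against 0.13 in WT cells. Ttc21b had 81.7, 87.2 and 84.4 CPM at day 2 and 14.8, 16.2 and 18.7 CPM at day 0 (2.35 ± 0.09, adjusted p = 1.07e-16), with no overlap. Ift43 (0.89 ± 0.09), Ift122 (0.60 ± 0.11) and Dync2h1 (0.40 ± 0.08) rose as well. Arl6 had 16.8, 15.1 and 17.6 CPM at day 2 and 26.01, 24.5 and 27.9 CPM at day 0 (-0.66 ± 0.09, adjusted p = 6.6e-07). Ttc26 had 10.1, 10.8 and 10.4 CPM at day 2 and 15.8, 15.5 and 17.4 CPM at day 0 (-0.64 ± 0.10, adjusted p = 8.06e-06). Every day 2 library was below every day 0 library for both. Ift52 (-0.57 ± 0.09), Kifap3 (-0.34 ± 0.06), Mkks (-0.51 ± 0.10) and Ift172 (-0.41 ± 0.09) completed the 6 with the lowest adjusted p.

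Between day 3 and day 2 in KO cells, 3 genes rose and 8 fell, against 14.7% and 14.4% of all tested genes. Falling with the lowest adjusted p was Wdr35 (-0.67 ± 0.07, adjusted p = 4.57e-08), with 55.1, 50.2 and 53.6 CPM at day 3 and 83.2, 86.8 and 82.1 CPM at day 2. Kif3a fell next (-0.63 ± 0.10, adjusted p = 1.84e-05), with 16.98, 16.3 and 13.5 CPM at day 3 and 22.9, 26.5 and 23.2 CPM at day 2. The groups did not overlap for either. Ttc26 fell again (-0.64 ± 0.11, adjusted p = 7.98e-05), as did Ift52 (-0.43 ± 0.09), Bbs9 (-0.42 ± 0.09) and Bbs4 (-0.50 ± 0.14), while Ttc30a1 (0.45 ± 0.14, adjusted p = 0.018), Dync2h1 (0.25 ± 0.08, adjusted p = 0.023) and Arl6 (0.25 ± 0.09, adjusted p = 0.0359) rose. None of these 3 rises was called without KO replicate 2 of day 2, and the 8 falls became 13 where only the groups compared were fitted.

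Between day 4 and day 3 in KO cells, 4 genes rose and none fell, against 5.76% and 5.83% of all tested genes, so that this step had the fewest calls over all genes too. Bbs7 had 11.98, 10.1 and 11.1 CPM at day 4 and 7.11, 6.72 and 7.54 CPM at day 3 (0.63 ± 0.13, adjusted p = 0.00223). Ttc26 had 9.48, 8.57 and 10.02 CPM at day 4 and 6.52, 6.49 and 7.10 CPM at day 3 (0.48 ± 0.11, adjusted p = 0.00481). Kif3a had 19.8, 21.2 and 20.6 CPM at day 4 and 16.98, 16.3 and 13.5 CPM at day 3 (0.40 ± 0.10, adjusted p = 0.00778). All 3 genes, and Bbip1 (0.33 ± 0.10, adjusted p = 0.0254), were higher in every day 4 library. The 4 became 7 without KO replicate 1 of day 4, and 9 where only the groups compared were fitted. Separation of libraries was more alike between genotypes than the calls. In KO cells, 17 of the 39 genes had all day 4 libraries above all day 3 libraries, and 3 had them below. In WT cells these numbers were 18 and 3. The shares of all tested genes that separated over this step were not worked out.

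**Figure D3:**
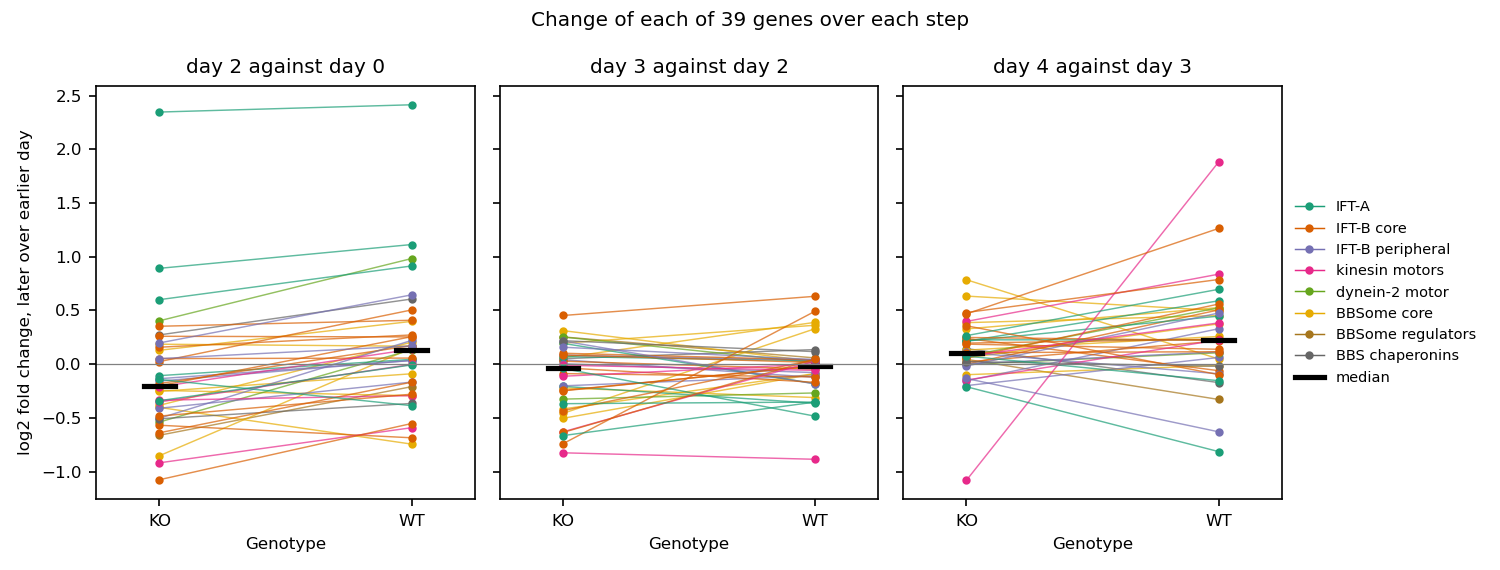
Log2 fold change of the later over the earlier day (vertical axis) for each of 39 genes, KO at the left and WT at the right of each panel, joined by gene and coloured by complex; black bars are medians. The medians are -0.20 in KO and 0.13 in WT for day 2 against day 0, and 0.11 in KO and 0.23 in WT for day 4 against day 3; the steep line at the right is Kif17, which had 2 counts over the KO libraries of day 4.

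Whether a step differed between genotypes was tested as the KO step minus the WT step. From day 0 to day 2, 9 genes had a lower and none a higher KO step, against 3.07% and 4.27% of all tested genes. Ift80 (-0.45 ± 0.09, adjusted p = 0.00205), Dync2h1 (-0.58 ± 0.12, adjusted p = 0.00327), Ift57 (-0.72 ± 0.17, adjusted p = 0.00981) and Dync2li1 (-0.67 ± 0.17, adjusted p = 0.0163) led. For Ift80 the mean was 42.7 ± 1.13 CPM at day 2 and 37.2 ± 2.03 CPM at day 0 in KO cells, and 56.2 ± 2.43 CPM at day 2 and 35.9 ± 1.28 CPM at day 0 in WT cells. Both genotypes rose, WT cells by more. This number is sensitive to the libraries used: it ranged from 4 to 10 when each was left out in turn, and was 4 without KO replicate 1 or WT replicate 1 of day 2 and 5 without KO replicate 1 or WT replicate 1 of day 0, or KO replicate 2 or WT replicate 2 of day 2.

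From day 2 to day 3, 4 genes had a lower KO step and 2 a higher one, against 4.33% and 6.61% of all tested genes. Kif3a (-0.66 ± 0.13, adjusted p = 0.00149) and Ttc26 (-0.68 ± 0.15, adjusted p = 0.00254) had the lower KO step, as did Ift52 (-0.47 ± 0.13, adjusted p = 0.0147) and Wdr35 (-0.31 ± 0.10, adjusted p = 0.0341). Of these, Wdr35 fell in both genotypes, while Kif3a, Ttc26 and Ift52 fell in KO cells and were not called in WT cells. Ttc21b (0.44 ± 0.12, adjusted p = 0.0123) and Ift43 (0.38 ± 0.12, adjusted p = 0.0488) were on the higher side. The 2 became 1 when any of 9 libraries was left out, and the 4 became 2 without WT replicate 1 of day 3. From day 3 to day 4, 9 genes had a lower KO step and 3 a higher one, against 11.2% and 12.6%. The kinesin-2 genes Kifap3 (-0.37 ± 0.09, adjusted p = 0.00274), Kif3b (-0.31 ± 0.09, adjusted p = 0.0121) and Kif3a (-0.44 ± 0.13, adjusted p = 0.016) were among the 9, with Ift172 (-0.48 ± 0.13, adjusted p = 0.00775), Ift81 (-0.50 ± 0.14, adjusted p = 0.0124) and Hspb11 (-0.50 ± 0.16, adjusted p = 0.0271). For Kifap3 the mean was 63.4 ± 2.42 CPM at day 4 and 70.3 ± 1.20 CPM at day 3 in KO cells, and 87.04 ± 10.6 CPM at day 4 and 74.4 ± 2.62 CPM at day 3 in WT cells. Ttc21b (0.60 ± 0.12, adjusted p = 0.000424), Traf3ip1 (0.50 ± 0.12, adjusted p = 0.00246) and Arl6 (0.37 ± 0.13, adjusted p = 0.031) had the higher KO step, all 3 being genes that fell in WT cells at that time. The 9 became 5 without the filter on low counts, and 5 without KO replicate 3 or WT replicate 2 of day 4.

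The genotype difference at day 4 was also set against that at day 0. It was lower for 18 genes and higher for 2, against 18.7% and 17.9% of all tested genes. Kif3a (-1.45 ± 0.13, adjusted p = 6.84e-09) and Ttc26 (-1.46 ± 0.14, adjusted p = 1.72e-08) led, followed by Kif3b (-0.78 ± 0.09, adjusted p = 2.45e-07), Dync2li1 (-1.18 ± 0.17, adjusted p = 6.62e-06), Ift81 (-0.95 ± 0.15, adjusted p = 1.28e-05) and Ift172 (-0.82 ± 0.13, adjusted p = 1.75e-05). The 18 took in Kif3a, Kif3b and Kifap3, both dynein-2 genes, 5 of the IFT-B core and 3 of the BBSome core. Kif17 was also called, with 2 counts over the KO libraries of day 4, and lost the call without KO replicate 3 of day 0. The calls of Hspb11 and Ift140 were lost where only the groups compared were fitted. Ttc21b (0.98 ± 0.13, adjusted p = 1.26e-06) and Traf3ip1 (0.49 ± 0.12, adjusted p = 0.00156) were on the higher side. Feeder markers differed between days, with sums given above, and their part was not tested. No p in these contrasts shows that the genes without a call kept the same difference.

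Levels can be compared between genes per kb of exonic length, here from GENCODE M21. At day 4 Kifap3 was the highest of the set in both genotypes, at 15.8 ± 0.603 CPM per kb in KO cells and 21.7 ± 2.65 CPM per kb in WT cells. In KO cells it was followed by Ift43 at 15.4 ± 1.44, Ift20 at 14.4 ± 1.49 and Ift74 at 13.3 ± 1.20 CPM per kb. In WT cells Ift74 at 18.4 ± 1.51, Ift43 at 18.1 ± 0.530 and Ift20 at 17.8 ± 1.24 CPM per kb came next, and these 3 do not differ beyond their SD. Kif3a came next in WT cells at 15.5 ± 0.708 CPM per kb and stood at 5.73 ± 0.196 CPM per kb in KO cells, close to Ift27 and Mkks. At the low end were Bbs1 at 0.310 ± 0.0952 in KO cells and 1.22 ± 0.114 in WT cells, Ttc30b at 0.254 ± 0.0442 in KO cells and 2.52 ± 0.375 in WT cells, and Kif17 at 0.00693 ± 0.0120 in KO cells and 0.170 ± 0.0423 in WT cells, all in CPM per kb. Over the 8 group means, Ttc30b spanned 13.8-fold, Bbs1 6.83-fold, Ttc21b 6.06-fold and Ttc26 5.67-fold, while Ift20 spanned 1.31-fold. For 24 of the 39 genes, Kif17 among them, the highest of the 8 group means was that of WT cells at day 4. The share of all tested genes with this pattern was not worked out, so the number does not show that the set is unusual.

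Other cilium genes, listed by role, were read in the same fit. At day 4, 6 of 8 further tested genes of IFT, dynein-2 and the BBSome fell and 1 rose, with Wdr34 (-1.34 ± 0.10, adjusted p = 9.97e-11) and Tctex1d2 (-0.92 ± 0.12, adjusted p = 8.04e-07), both parts of dynein-2, at the lowest adjusted p, and then Wdr60 (-0.90 ± 0.13, adjusted p = 1.53e-06). Wdr34 (-0.59 ± 0.10, adjusted p = 8.95e-05) and Wdr60 (-0.41 ± 0.13, adjusted p = 0.0218) were already lower at day 0. The gene that rose was Ttc8, described with the BBSome. For Wdr60 and Ttc8 alike, the part of position on the chromosome was not tested. Transition zone genes, which gate the base of the cilium, rose for 3 of 21 and fell for 14, and those that fell include B9d1 (-1.10 ± 0.09, adjusted p = 5.73e-10) and Rpgrip1l (-1.17 ± 0.12, adjusted p = 1.58e-08). Genes of the motile axoneme fell for 15 of 16 and rose for 1, among them Cfap126 (-4.34 ± 0.35, adjusted p = 2.21e-10), Ccdc39 (-1.53 ± 0.15, adjusted p = 3.55e-09) and Tekt1 (-4.22 ± 0.43, adjusted p = 1e-08). Counts of Cfap126 summed to 18 over the KO libraries and 375 over the WT libraries, and those of Tekt1 to 10 over the KO libraries and 194 over the WT libraries. With so few KO counts, the size of these changes is uncertain. Whether genes of this list passed the filter on low counts through WT libraries alone was not looked at. The number that fell and the median of this list are therefore not given as support for a fall. The median log2 fold changes of these lists were -0.64, -0.69 and -2.62, against -0.57 for the IFT and BBSome genes and -0.01 for all tested genes. Of all tested genes, 27.6% fell and 26.3% rose at day 4.

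The medians of the lists for other steps of cilium biology were nearer to that of all genes. Basal body and distal appendage genes fell for 4 of 12 and rose for 2, ciliary GTPases and adaptors fell for 4 of 14 and rose for 3, and cilium disassembly genes fell for 3 of 7 and rose for 4. Over all tested genes 27.6% fell and 26.3% rose. The medians of the 3 lists were -0.09, -0.01 and 0.19. Of 11 Hedgehog pathway genes, whose signal passes through cilia in mammals, 4 rose and 2 fell, with a median of 0.19; Gli3 (1.64 ± 0.14, adjusted p = 3.21e-09) and Gli2 (1.22 ± 0.19, adjusted p = 2.29e-05) rose. The ligand gene Shh, 1 of those called lower, had 2 counts over the KO libraries and 71 over the WT libraries. It had 2 counts over the KO libraries of every other day too, and passed the filter on low counts through WT libraries alone. Its call is therefore not given as support for a fall. Of 7 genes for RFX factors and Foxj1, 3 fell and 2 rose. Foxj1, the master factor of motile cilia, had 12.1, 11.2 and 21.2 CPM in KO cells and 52.96, 95.6 and 107 CPM in WT cells at day 4 (-2.53 ± 0.32, adjusted p = 2.93e-06), with no overlap. Rfx2 rose at day 2 (0.79 ± 0.14, adjusted p = 0.000147) and fell at day 4 (-1.14 ± 0.17, adjusted p = 2.98e-06), and Rfx7 rose at day 4 (0.37 ± 0.06, adjusted p = 6.63e-06). Rfx3 fell at day 2 (-0.35 ± 0.12), day 3 (-0.79 ± 0.12) and day 4 (-0.63 ± 0.12). Rfx4, named here after its values were seen for day 4, was lower in KO cells at day 2 (-0.98 ± 0.22) and higher at day 4 (1.46 ± 0.32). Its day 4 means were low, 1.13 CPM in KO cells and 0.409 CPM in WT cells, from 72 and 26 counts. Both lay below the day 2 means of 1.94 CPM in KO cells and 3.85 CPM in WT cells. Of all genes on these lists, Dynlt1b and Spag6l were not found by name, Ttc30a2, Dynlrb2 and Dhh did not pass the filter on low counts, and Iqcb1 was listed at 0.

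**Figure D4:**
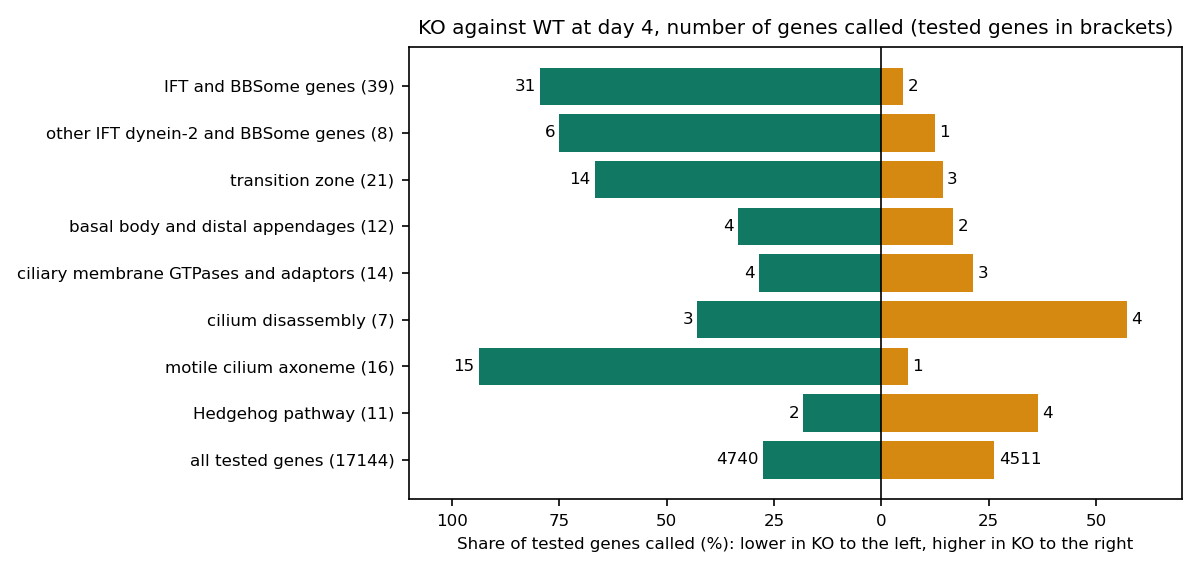
Share of tested genes called at day 4 (horizontal axis, percent), lower in KO to the left in green and higher in KO to the right in orange, for the IFT and BBSome genes, 7 other lists and all tested genes; figures beside the bars are numbers of genes. The IFT and BBSome genes have 31 lower and 2 higher of 39, against 4740 lower and 4511 higher of 17144. Whether motile axoneme genes passed the filter on low counts through WT libraries alone was not looked at.

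X-box letters were common in the promoters of the set. The core site GTTGCC was in 15 of 36 promoters (41.7%), against 12.7% of 27025 RefSeq promoters of the same length. The palindrome was in 7 of 36 (19.4%), against 1.89%. This spelling was taken after a stricter one (GTTGCC, then AT, then GGNAAC) was found in none of the 36 and in 0.0703% of all promoters. Bbs1, Bbs7, Ift57 and Ttc26 held both spellings, where the palindrome includes the core site. The 8 palindromes are shown in capitals, with 5 bases on either side, to let their letters be compared.
Bbs1: agctgGTTGCCAAGGCGACgcctg
Bbs4: agctgGTCGCCCGGGAAACggtcg
Bbs7: ccccgGTTGCCTTGGAAACcggcc
Ift22: tcaggGTTTCCTGGGCTACtgcgc
Ift22: tcccgGTCGCCGTGGAAACtgacc
Ift57: gtctgGTTGCCGTGGTGACcggct
Ttc26: gcggcGTTGCCGTGGAAACggagc
Wdr19: gcacgGTCTCCTGGGTGACgagaa

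Their first bases lay between 121 bases before the start (Bbs7) and 24 after it (Bbs4). All 7 genes with a palindrome fell at day 4, with a median log2 fold change of -0.76, while of the 27 tested genes with a promoter and no palindrome 20 fell and 2 rose, with a median of -0.47. Of 14 tested genes with a core site 11 fell and 1 rose (median -0.63), and of 20 without one 16 fell and 1 rose (median -0.51). Kif17 is among these 11, and among the 20 genes without a palindrome that fell. It passed the filter on low counts through WT libraries alone. The gene with a core site that rose was Traf3ip1, and those that did not pass were Ift27 and Wdr35. Over all tested genes, 27.6% fell and 26.3% rose at day 4. The theme was chosen by lower levels of cilium genes in KO cells, and the looser palindrome after the stricter one was not found. These splits therefore describe the set only, and a link between motif and change was not tested. A missing match says only that these letters are not in this window.

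**Figure D5:**
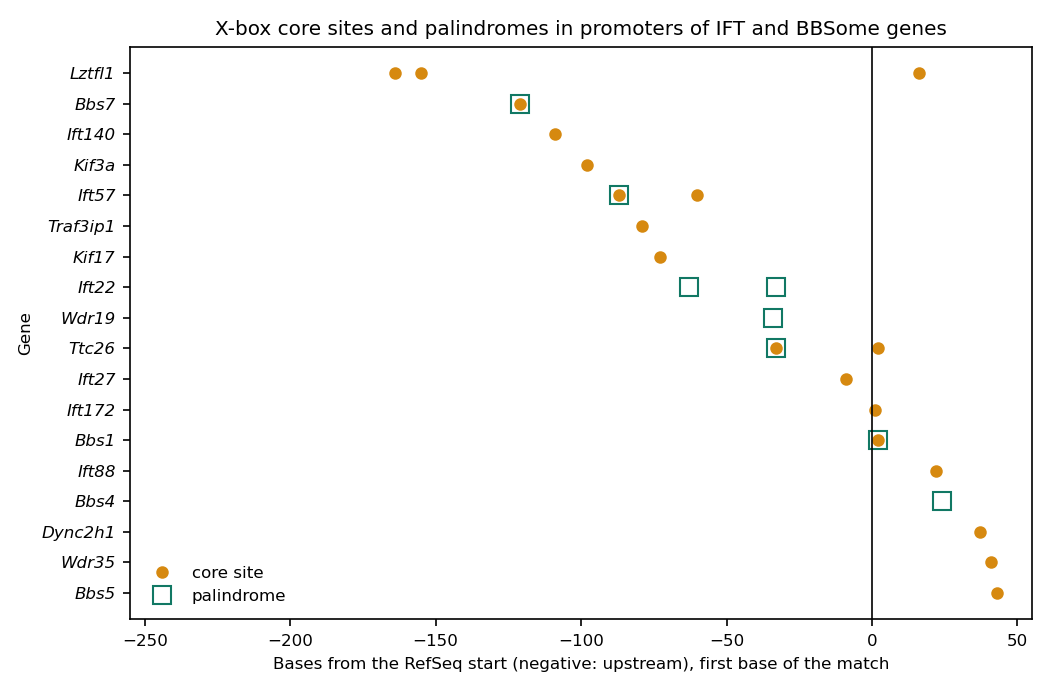
Position of the first base of each core site (filled circle) and palindrome (open square), in bases from the RefSeq start (0 line, negative upstream), for the 18 genes with a match. Palindromes of Bbs1, Bbs7, Ift57 and Ttc26 coincide with a core site, and 7 genes have a palindrome.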

How the data were processed

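Polyadenylated RNA of CJ9 mouse embryonic stem cells was sequenced in 24 libraries, 3 for each of 8 groups of genotype and day. Reads were trimmed with Trimmomatic and aligned with HISAT2 to GRCm38.p6, per the submitters' processing notes; counting tool, annotation, strand setting and versions: not given in the sources used here. The authors deposited raw counts per gene, which summed to between 18531390 and 24244958 per library.

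Tests used edgeR 4.0.16 (R 4.3.3) after its filterByExpr by group, with TMM scaling and robust quasi-likelihood fits of all 24 libraries and 8 groups, and Benjamini-Hochberg adjustment over 17144 genes. From this fit came 14 comparisons: KO against WT at each day, the later against the earlier day in each genotype, and differences between these. The common biological coefficient of variation was 0.0906. The fit was tested on simulated data first. No replicates were counted as 1 library, since all pairs differed beyond sampling noise.

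Alternatives were DESeq2 size factors, the DESeq2 1.42.0 Wald test, a fit of only the groups compared, a replicate block, testing without a filter on low counts, the genes outside chromosome 8 and the part of chromosome 12 past 90 Mb, and each library left out. The genes and lists were chosen with earlier results of these data known. Named genes are any of the set, with values in every library for those, up to 6 per direction and comparison, of lowest adjusted p and for some others by role, and up to 3 called genes of each other list per comparison. Promoter windows were read from RefSeq for GRCm38.p6 and searched on both strands. Intervals cover counting error only.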

Additional observations from a re-analysis of the deposited data

Results flagged for a closer look

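The effect of day differed between KO and WT cells, or the genotype effect between days, for 47 gene and contrast pairs by a direct test (edgeR's quasi-likelihood test, Benjamini-Hochberg adjusted p under 0.05 over all tested genes). Values are log2 differences.

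From day 0 to day 2, the KO step minus the WT step was -0.72 for Ift57, -0.67 for Dync2li1, -0.58 for Dync2h1, -0.48 for Ift81, -0.47 for Ttc26, -0.46 for Ift74, -0.45 for Ift80, -0.45 for Arl6 and -0.35 for Kif3b. From day 2 to day 3 it was -0.68 for Ttc26, -0.66 for Kif3a, -0.47 for Ift52 and -0.31 for Wdr35, and on the other side 0.44 for Ttc21b and 0.38 for Ift43.

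From day 3 to day 4 it was -0.50 for Ift81, -0.50 for Hspb11, -0.49 for Ift57, -0.48 for Ift172, -0.44 for Kif3a, -0.43 for Wdr19, -0.38 for Ift140, -0.37 for Kifap3 and -0.31 for Kif3b. It was 0.60 for Ttc21b, 0.50 for Traf3ip1 and 0.37 for Arl6.

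The KO effect at day 4 minus that at day 0 was -2.55 for Ttc30b, -1.46 for Ttc26, -1.45 for Kif3a, -1.18 for Dync2li1, -1.05 for Bbs1, -0.95 for Ift81, -0.82 for Ift57, -0.82 for Ift172, -0.78 for Wdr19, -0.78 for Kif3b, -0.63 for Bbip1, -0.49 for Hspb11, -0.45 for Dync2h1, -0.39 for Ift52, -0.39 for Bbs2, -0.37 for Kifap3 and -0.37 for Ift140. The value of -3.23 for Kif17 rests on 2 counts over the KO libraries of day 4 and depends on the fit's prior count. On the higher side were Ttc21b at 0.98 and Traf3ip1 at 0.49. Sums of the endoderm, pluripotent and feeder markers changed with genotype and day too, and their part in these differences was not tested.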

How the results depend on the processing

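No gene called, either as reported or in an alternative, changed direction under any alternative that was run. Medians near 0 did change sign with single libraries left out. That of the KO step minus the WT step from day 2 to day 3, 0.04 as reported, ranged from -0.008 to 0.05. The median of WT day 3 against day 2, -0.01 as reported, ranged from -0.06 to 0.01. The number of genes higher in KO at day 3, 1 as reported, was 2 with DESeq2 size factors, in the DESeq2 Wald test, with the replicate block and with only the groups compared, and 0 without the filter on low counts. Without that filter the higher KO steps from day 2 to day 3 were 1 and the lower KO steps from day 3 to day 4 were 5. With only the groups compared, 4 genes of the set and 1587 of all genes were called at day 0 (3611 of all genes as reported), 13 fell between day 3 and day 2 in KO cells, and 9 rose and 2 fell between day 4 and day 3 in KO cells, with 3698 of all genes called (1986 as reported). The causes were not tested.

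Replicate numbers were not taken to pair the libraries, and the replicate block is an alternative only. Deviations from group means of same-numbered KO and WT libraries correlated at -0.15 to 0.04. Those of successive days in 1 genotype correlated at -0.09 to 0.17 (all 9 above 0 in KO cells). The part of a weak effect shared by replicate number across days was not tested beyond this block. With the block, 2 genes were higher in KO at day 3, 1 fell between day 4 and day 3 in KO cells and 1 had a higher KO step from day 2 to day 3. Among values of single genes it lost 3 calls and gained 4.

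With each library left out in turn, KO against WT gave 4 to 8 lower and 0 to 1 higher genes at day 0, 22 to 26 lower at day 2, 25 to 27 lower and 0 to 2 higher at day 3, and 27 to 31 lower at day 4. The higher genes at day 3 were 0 without KO replicate 1 or 3 or WT replicate 1. Between day 3 and day 2 in KO cells 0 to 4 genes rose, and between day 4 and day 3 3 to 7 rose, with 1062 to 1504 of all genes called. Lower KO steps numbered 4 to 10 from day 0 to day 2 (731 to 1645 of all genes in either direction), 2 to 4 from day 2 to day 3 and 5 to 10 from day 3 to day 4, and higher KO steps 1 to 2 from day 2 to day 3. Of values of single genes, 209 lost and 56 gained a call, against 3947 unchanged. A few counts per library, as for Kif17, limit what this depth shows. The knock-out is a single line.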
